A study of Mus musculus with 11 samples.

Results

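The tRNA pool described here is that of mouse embryonic fibroblasts, labelled Wt, that carried the SV40 T antigen and had been stably transduced with empty vector. Its members are the 2 empty vector input libraries, of 11 libraries in the series, with all 301 tRNA entries of the abundance tables in each. The series mapped the tRNA modification N7-methylguanosine (m7G) with TRAC-seq, which cleaves tRNA chemically at the methylated base. It holds 6 input libraries, made from small RNA treated with wild-type and mutant AlkB demethylase and not cleaved, and 5 cleaved libraries, across 3 constructs: empty vector, wild-type METTL1 with WDR4, and a METTL1 labelled mutant with WDR4. Only the empty vector input libraries are described, with no comparison to the METTL1 libraries. The cells were kept in puromycin and G418, without antibiotic during expansion and lysis. The labels speak of stable clones, do not say how many, and do not say whether the 2 libraries came from separate cultures, so the SD between them may be technical. The tables list tRNA entries alone, none of which marks a cell type, so the fibroblast label could not be checked.

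A tRNA carries its amino acid to the ribosome and reads a codon through its anticodon. tRNAs that carry the same amino acid with different anticodons are isoacceptors, and those that share an anticodon but differ elsewhere are isodecoders. The first anticodon base, position 34, pairs with the last codon base and allows wobble: an adenine there is usually converted to inosine, which reads codons ending in U, C or A, and a guanine reads codons ending in C or U. Anticodons are written below with T, as in the tables, and codons with U. Entry names give the amino acid, then the anticodon, then a number: AlaTGC23, for example, is an alanine entry with the anticodon TGC.

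Abundance was given as RPM, reads per 1000000 reads, so a share of reads is a relative level, and the amount of tRNA per cell cannot be seen in it. The values implied 16003708 reads in library 1 and 5405585 in library 2, and 1 read was worth 0.0625 and 0.185 RPM. RPM in the 2 libraries correlated across the 301 entries with Pearson's r at 0.997 and Spearman's rho at 0.998, a description only, since all points share the same 2 libraries. The median SD of log2(RPM + 1) between them was 0.08. The 2 libraries differed beyond counting error, with a chi-square per degree of freedom of 116 on the implied reads, and were treated as separate samples. Items are called ordered only where the values of both libraries do not overlap, and no test was made.

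Alanine tRNA entries held the largest share of reads by far. They took 31.0% of tRNA reads in library 1 and 31.6% in library 2, with 44 of the 301 entries (mean 31.3% ± 0.39, SD, n = 2 libraries throughout). Leucine followed with 12.1% and 11.5%, glutamine with 11.2% and 10.8%, and arginine with 7.79% and 8.43%. Alanine, leucine and glutamine together made up 54.0% ± 0.29 of reads from 77 entries. The counting error of such shares was small: the Wilson 95% interval of the alanine share in library 2 ran from 31.5% to 31.6%, and intervals cover counting error only.

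**Figure D1:**
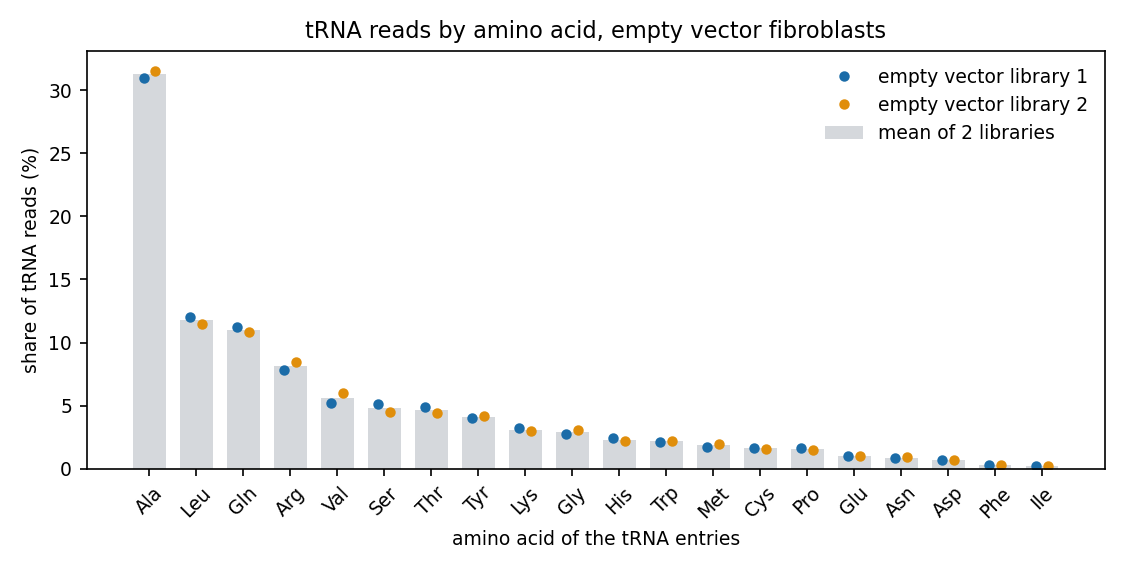
Share of tRNA reads (%) by amino acid in empty vector library 1 and library 2 (points), with their mean (bars); selenocysteine and the suppressor entry, both near 0, are not drawn. Alanine lies at 31.0% and 31.6%, and isoleucine, the lowest drawn, at 0.244% and 0.236%.

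Below these, valine held 5.58% ± 0.56, serine 4.81% ± 0.42, threonine 4.66% ± 0.29 and tyrosine 4.12% ± 0.13. Lysine (3.10% ± 0.19), glycine (2.92% ± 0.18), histidine (2.32% ± 0.19) and tryptophan (2.17% ± 0.057) came next. Methionine, whose single anticodon CAT serves both initiator and elongator tRNAs that the entry names do not tell apart, held 1.87% ± 0.17. Cysteine (1.61% ± 0.057), proline (1.57% ± 0.10), glutamate (1.00% ± 0.0044) and asparagine (0.892% ± 0.016) were lower still. The scarcest of the 20 standard amino acids were aspartate at 0.731% and 0.695%, phenylalanine at 0.280% and 0.275%, and isoleucine at 0.244% and 0.236%. In this order 4 of 21 neighbouring pairs overlapped between libraries: serine with threonine, lysine with glycine, histidine with tryptophan, and cysteine with proline.

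Grouped by side chain, the small and aliphatic amino acids (Gly, Ala, Val, Leu, Ile and Pro) held 53.3% ± 0.60 of reads, from 119 entries. The basic amino acids lysine, arginine and histidine held 13.5% ± 0.077, and the acidic amino acids aspartate and glutamate 1.71% ± 0.021. The amides asparagine and glutamine stood at 11.9% ± 0.24, nearly all of it glutamine. Serine and threonine, with a hydroxyl group, held 9.47% ± 0.71, the aromatic amino acids 6.56% ± 0.18, and cysteine and methionine 3.48% ± 0.11.

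Many entries had nearly the same value as another entry, and this bears on the shares above. Within amino acids, 16 groups of entries were linked by values within 1% of each other in both libraries. They held 44 entries and 48.3% of mean RPM, and 8 of the groups, with 26 entries, spanned more than 1 anticodon. The largest held 7 alanine entries, AlaTGC84, AlaTGC7, AlaTGC106, AlaTGC35, AlaCGC10, AlaCGC18 and AlaCGC8, at 20202.3 to 20221.8 RPM in library 1 and 20996.1 to 21020.5 RPM in library 2. Their implied reads in library 1 had an SD of 109, against 569 for independent counts of that size, while the 1% limit would have allowed differences of 3234 reads. These values lay closer together than independent counts would, also between entries of unlike anticodons.

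The group next in size was LeuCAG8 with LeuCAA8, LeuCAA2, LeuCAA5 and LeuCAA3, at 17494.0 to 17930.2 RPM in library 1 and 16626.0 to 17064.4 RPM in library 2, or 8.64% of the pool. Here the SD of reads was 5.06 and 3.02 times the counting SD, and in the pair AlaTGC23 and AlaCGC7 it was 3.48 and 1.87 times. It lay below the counting SD in both libraries in 11 of the 16 groups, most of them pairs, but in only 2 of the 5 groups of 3 or more entries. In some pairs with few reads the 1% limit fixed this outcome in advance, so the count of groups cannot show closeness there. For CysGCA127 and CysGCA76 the limit was 50.1 and 16.2 reads, against counting SDs of 70.8 and 40.2. For ThrTGT5 and ThrCGT11 it was 89.6 and 26.2 reads, against 94.7 and 51.2. The SD of a pair is its difference over the square root of 2, so IleAAT45 and IleAAT35 were fixed as well. Their limit was 168 and 55.1 reads, against 130 and 74.2. ValCAC13 and ValAAC72 were nearly so, with 204 and 77.7 reads against 143 and 88.1. The pairs ThrAGT42 and ThrAGT102, LysCTT82 and LysCTT27, and CysGCA127 and CysGCA76 differed least, with SDs of 0.026, 0.047 and 0.010 times the counting SD in library 1. Across anticodons, SerTGA14 and SerAGA40 stood at 6425.8 and 6422.3 RPM in library 1 and 4920.1 and 4914.9 RPM in library 2. The sources used here do not give how reads that fit several entries were handled, and the part of this in the shares was not tested.

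When each such group was counted once, within 1% and across the anticodons of an amino acid, alanine remained the largest share at 21.9% ± 0.094. Leucine then held 7.27%, below glutamine with 12.6% and arginine with 12.2%. Under 4 ways of counting near-identical entries once, which differed in tolerance and in whether anticodons were kept apart, alanine ranged from 21.9% to 29.3%, leucine from 6.37% to 8.53%, glutamine from 10.2% to 12.6% and arginine from 10.5% to 13.4%. The place of alanine at the top was kept in all 4, and the place of leucine as the next amino acid in none. The lower order moved too: tryptophan ranged from 1.17% to 1.59%, below methionine in each way, and histidine from 3.00% to 4.09%. Cysteine ranged from 0.746% to 2.37%, and lay below aspartate with the 5% limit. Aspartate itself ranged from 0.924% to 1.26% and glutamate from 1.30% to 1.76%. The shares of the side chain groups above thus move as well, beyond their SD between libraries. Below, some results that such counting turns round or moves are given with it. Values given without it are as deposited and can move too, some by more than 1.5 times.

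The 301 entries fell into 54 combinations of amino acid and anticodon, called anticodons below. AlaTGC, whose anticodon matches the codon GCA, led with 15.7% of reads in library 1 and 16.1% in library 2, and AlaCGC, which matches GCG, followed with 13.1% and 13.4%. These anticodons together held 29.2% ± 0.50 of reads in 18 entries. The third alanine anticodon AGC, with the most entries of the amino acid (25), held 2.21% and 2.05%.

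LeuCAA, for the codon UUG, held 7.07% and 6.72%, and the glutamine anticodons GlnCTG and GlnTTG 6.22% and 6.03%, and 4.98% and 4.81%. TyrGTA (4.03% and 4.21%) and ThrAGT (3.94% and 3.62%) completed the 7 most abundant anticodons, each of which was clear of the next in both libraries. With near-identical entries counted once in the 4 ways, LeuCAA held 2.07% to 2.48% of reads, below GlnCTG and GlnTTG in each, while AlaTGC and AlaCGC stayed the highest. ThrAGT then lay below ArgACG and ArgCCT in all 4 ways, and TyrGTA lay below both of these with the 5% limit. Further down the order was less sharp. As deposited, 28 of the 53 neighbouring pairs of anticodons overlapped, among them ValAAC (3.00% ± 0.30), ArgACG (2.96% ± 0.21) and ArgCCT (2.86% ± 0.37). With near-identical entries counted once, ValAAC lay below ArgACG and ArgCCT in all 4 ways. In all, 44 anticodons summed to at least 1000 RPM, and 7 lay under 100 RPM.

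The genetic code groups codons that share their first 2 bases into 16 boxes of 4 codons, of which 8 encode a single amino acid. These 8 boxes held 58.6% ± 0.26 of reads with 137 entries, and the 8 split boxes 41.4% ± 0.26 with 164. Much of this rested on alanine: in the pool without alanine entries the 7 other boxes of 1 amino acid held 39.7% ± 0.040. By box, GCN (alanine) held 31.3%, CAN (glutamine and histidine) 13.3% ± 0.45 and UUN (leucine and phenylalanine) 7.45% ± 0.27, the last of which was 2.91% to 3.42% with near-identical entries counted once. Among the low boxes were AUN (isoleucine and methionine) with 2.11% ± 0.17 and CCN (proline) with 1.57% ± 0.10.

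By the base at position 34, anticodons with C34 held 44.5% and 45.2% of reads, T34 26.6% and 26.7%, A34 15.8% and 15.1%, and G34 13.1% and 12.9%. Anticodons with T34 or C34, which match codons ending in A or G, thus held 71.6% ± 0.56, from 164 entries. Without alanine the order of the lower bases differed: C34 stood at 45.9% ± 0.67, A34 at 19.4% ± 0.39, G34 at 18.9% ± 0.046 and T34 at 15.8% ± 0.23. T34, next after C34 in the whole pool, was the lowest of the 4 without alanine in both libraries, and its mean stayed the lowest, at 16.4% to 18.0%, with near-identical entries counted once. The order of the A34 and G34 means turned round in 3 of those 4 ways.

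Within the 8 boxes of a single amino acid the make-up differed from box to box. A34 led in threonine with 81.2% ± 0.16 of the reads of its box, in arginine CGN with 60.9% ± 4.9, in valine with 53.9% ± 0.050 and in serine UCN with 36.7% ± 2.5. C34 led in leucine CUN with 54.6% ± 0.074, T34 in alanine with 50.7% ± 0.29 and in proline with 48.1% ± 0.23, and G34 in glycine with 47.7% ± 0.046. A34 was lowest in alanine, at 7.12% in library 1 and 6.48% in library 2. With near-identical entries counted once across anticodons, A34 of alanine came to 11.2% within 1% and 10.7% within 5%. Some of these splits rest on near-identical entries: the alanine and leucine groups above, ValCAC54 with ValAAC113 and ValAAC77, and SerTGA14 with SerAGA40. Counted once within 1% across anticodons, C34 and A34 of leucine CUN came to 34.6% and 34.2%, and in serine UCN C34 led with 38.2%, against 33.9% for A34. Counted once within anticodons, C34 led valine with 45.7%, against 44.6% for A34. The leading base of the other 5 boxes stayed the same in all 4 ways.

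**Figure D2:**
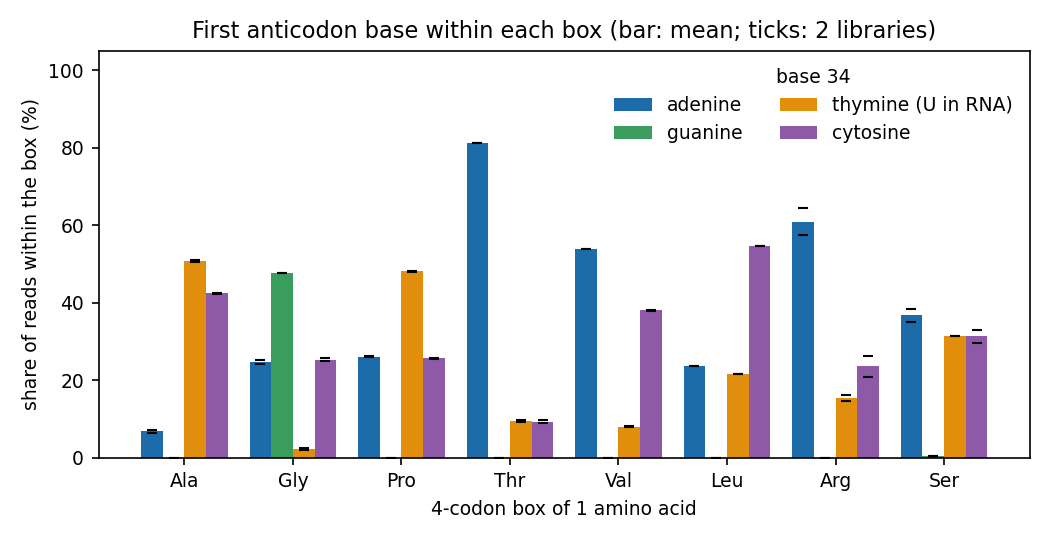
Share of reads (%) within each of the 8 codon boxes of a single amino acid, by the base at anticodon position 34; bars are the mean of the 2 empty vector libraries and ticks the value in each. Adenine leads in threonine (81.2%), valine, arginine and serine, cytosine in leucine, thymine in alanine and proline, and guanine in glycine.

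Pairs of anticodons that read codons ending in A or G were split very unevenly in some amino acids and almost evenly in others. Of leucine UUR reads, LeuCAA held 96.0% and 96.2% and LeuTAA the rest, and of lysine reads LysCTT held 91.1% and 90.4% and LysTTT the rest. Among the arginine AGR anticodons, ArgCCT (for AGG) held 87.4% and 88.0%, and ArgTCT (for AGA) 12.6% and 12.0%. Glutamine and glutamate were close to even: GlnCTG held 55.5% and 55.6% of glutamine reads, and GluCTC 50.8% and 53.0% of glutamate reads. In all 5 pairs the anticodon with C34 was the higher one in both libraries. With near-identical entries counted once this held in all 4 ways but for GlnCTG, which came to 49.6% within 5% in an anticodon, and LeuCAA held 83.0% to 85.9% of its pair.

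Leucine, arginine and serine each have codons in 2 boxes. Leucine reads lay mostly outside the CUN box, at 61.1% ± 0.040 in the UUR anticodons. This turned round when the near-identical LeuCAA entries were counted once: the UUR anticodons then held 30.5% to 46.0% of leucine reads in the 4 ways. Arginine reads lay mostly in the CGN box, at 61.9% in library 1 and 58.0% in library 2, and serine reads in the UCN box, at 66.8% and 64.2%. The serine AGY codons were left to SerGCT alone, with 1.66% ± 0.058 of the pool.

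Of the 61 sense codons, 52 had an entry with the matching anticodon, and 48 had entries that summed to at least 10 RPM. The 9 without one fell into 2 kinds. Those ending in U, where guanine stands at position 34 of the matching tRNAs, were UUU for phenylalanine, UAU for tyrosine, GAU for aspartate, AAU for asparagine and AGU for serine. Those ending in C, where adenine stands there, were CUC for leucine, GUC for valine, ACC for threonine and CGC for arginine. The 4 codons matched only by entries under 10 RPM were GCC for alanine (AlaGGC139), CCC for proline (ProGGG7), AUC for isoleucine (IleGAT158) and UGU for cysteine (CysACA21). Mammals, as background, read the codons ending in C of the alanine, proline and isoleucine boxes with inosine. A stop codon was matched by SeCTCA2, the tRNA that inserts selenocysteine at UGA, at 17.4 and 15.9 RPM, and by the suppressor-type entry SupTTA1 at 3.62 and 4.62 RPM.

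Position 34 was taken to be unusual where it held A outside the amino acids whose tRNAs use inosine, or G inside those boxes. There were 9 such entries of 7 anticodons, and GlyACC69 stood apart from the rest. It had 6720.4 RPM in library 1 and 7657.8 RPM in library 2, and was the highest of the 17 glycine entries, with 24.6% ± 0.71 of glycine reads. GlyGCC105, the highest entry with the usual GCC anticodon, had 3887.9 and 4255.8 RPM. The other 8 unusual entries were low in both libraries. SerGGA14 had 137 and 136 RPM, HisATG3 42.1 and 31.6 RPM and GlyACC57 15.5 and 9.06 RPM. The remaining 5, GlyACC54, CysACA21, ProGGG7, IleGAT158 and AlaGGC139, were at 2.12 RPM or below. RefSeq lists 1 gene each for GlyACC, SerGGA and HisATG in the mouse build GRCm38.p6.

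Reads were concentrated in few entries. In each library 24 entries made up 50% of reads and 92 made up 90%. With near-identical entries counted once, 20, 17, 20 and 15 separate units made up 50% in the 4 ways (within 1% and 5% in an anticodon, then across anticodons). As deposited, 99% of reads was reached with 158 entries in library 1 and 157 in library 2. The 30 entries of at least 10000 RPM held 57.5% ± 0.39, and the 59 entries under 10 RPM together 0.0185% ± 0.00095. The same 10 entries led in both libraries.

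**Figure D3:**
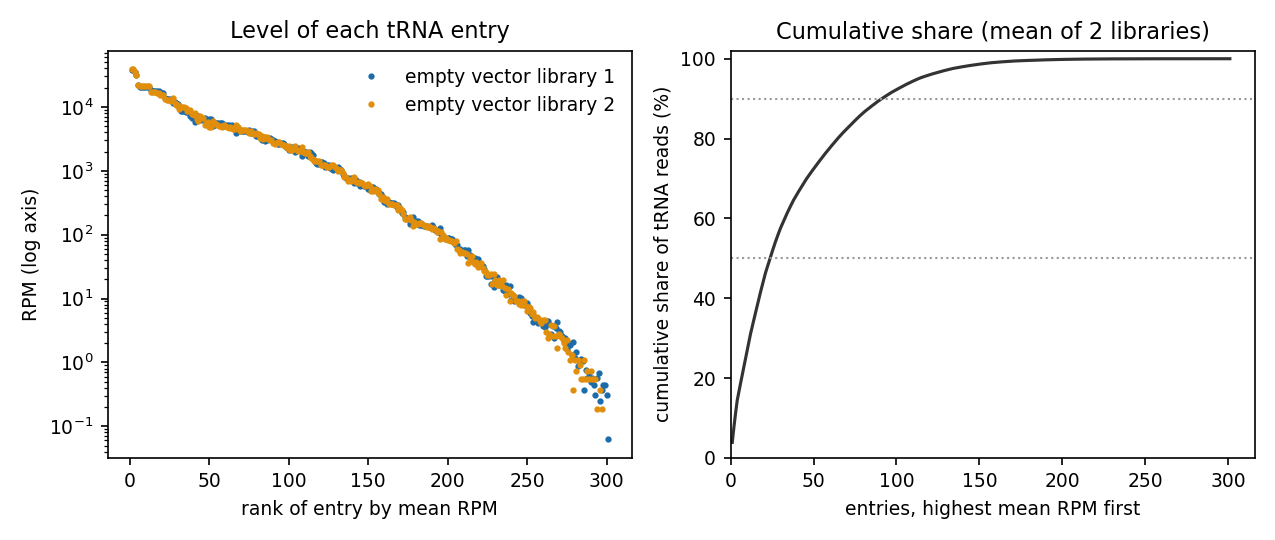
Left, RPM (log axis) of the 301 tRNA entries in empty vector library 1 and library 2 against their rank by mean RPM, with entries at 0 not drawn. Right, cumulative share of tRNA reads (%) over the same ranks; the dotted lines mark 50% and 90%, reached with 24 and 92 entries.

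The 4 highest entries were all alanine and stood apart from the next entry. AlaTGC23 had 38500.4 RPM in library 1 and 38902.7 RPM in library 2, and AlaCGC7, within 1% of it, 38259.6 and 38678.3 RPM. AlaTGC104 had 34918.3 and 35444.6 RPM and AlaCGC6 31809.6 and 32058.0 RPM. GlnCTG7 followed with 22151.2 and 21813.4 RPM, and then came the group of 7 near-identical alanine entries. These 12 entries, with 11 from alanine, held 31.1% of the pool.

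Scarce entries were found beside abundant ones of the same anticodon. In library 2, 5 entries stood at 0, which allows a level of up to 0.555 RPM (3 reads), and none did in library 1. They were AlaAGC307, ProAGG21, LeuCAA11, IleGAT158 and AlaGGC139, with 11, 7, 7, 5 and 1 reads in library 1. AlaCGC13, LysCTT14, SerGCT4020, SerGCT5839 and GluCTC14 completed the 10 lowest, at 0.185 to 0.562 RPM in either library. LeuCAA11 thus lay near 0 while the 4 other LeuCAA entries lay between 16626.0 and 17823.4 RPM, and AlaTGC30 had 0.562 and 0.555 RPM beside AlaTGC23. Of all 301 entries, 59 (19.6%) lay under 10 RPM. By amino acid, isoleucine had 5 of 9 entries there, proline 5 of 12, alanine 16 of 44, serine 7 of 22 and lysine 8 of 27. Cysteine had 2 of 29 and arginine 0 of 20.

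Of the 44 anticodons with 2 or more entries, the leading entry held more than 50% of reads in 17, and its share had a median of 46.2%. The most one-sided were GlyACC, where GlyACC69 held 99.8%, and ProAGG, where ProAGG37 held 96.3%. LysTTT28 held 89.6% of LysTTT, AspGTC42 81.8% of AspGTC, GlyTCC11 76.4% of GlyTCC, HisGTG6 70.8% of HisGTG and LeuCAG8 70.0% of LeuCAG. LeuCAG8 belongs to the near-identical group with LeuCAA entries, and counting that group once across anticodons lowers its share of LeuCAG. HisGTG6 alone had 17088.3 and 15609.4 RPM, against 7335.6 and 6115.3 RPM for HisGTG20 and 48.7 and 42.0 RPM for HisGTG9, so that the histidine pool rested on a pair of entries.

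Some anticodons were spread more evenly. The 6 TrpCCA entries differed 2.03-fold between highest and lowest in mean RPM, the leading one, TrpCCA5, holding 19.5%, and 4 of them were near-identical at 4129.8 to 4132.7 RPM in library 1. The 3 GluTTC entries differed 1.91-fold and the 3 PheGAA entries 2.50-fold. In TyrGTA, 6 of 7 entries were needed to reach 90% of reads, but the remaining one, TyrGTA14, had only 17.1 and 24.0 RPM. CysGCA was uneven: it had the longest list, 28 entries, of which 4 (CysGCA37, CysGCA98, CysGCA131 and CysGCA46) lay between 2990.6 and 3332.4 RPM and the next, CysGCA99, at 341 and 333 RPM.

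The leading entries of the remaining amino acids fell in between. They were LeuCAG8 with 14.9% of leucine reads, ArgACG2 with 22.0% of arginine, ValCAC54 with 16.8% of valine, SerAGA75 with 12.3% of serine, ThrAGT42 with 34.3% of threonine and LysCTT45 with 30.6% of lysine. Of these, LeuCAG8, ValCAC54 and ThrAGT42 belong to near-identical groups, so other entries of the same amino acid stood almost as high. MetCAT27 held 29.6% of methionine, ProTGG8 26.0% of proline, GluCTC5 27.3% of glutamate, AsnGTT475 56.9% of asparagine, PheGAA7 52.7% of phenylalanine and IleAAT45 43.2% of isoleucine. Isoleucine rested on near-identical IleAAT45 (1050.8 and 1023.4 RPM) and IleAAT35 (1046.6 and 1014.1 RPM), and the IleTAT entries summed to 323 and 301 RPM.

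**Figure D4:**
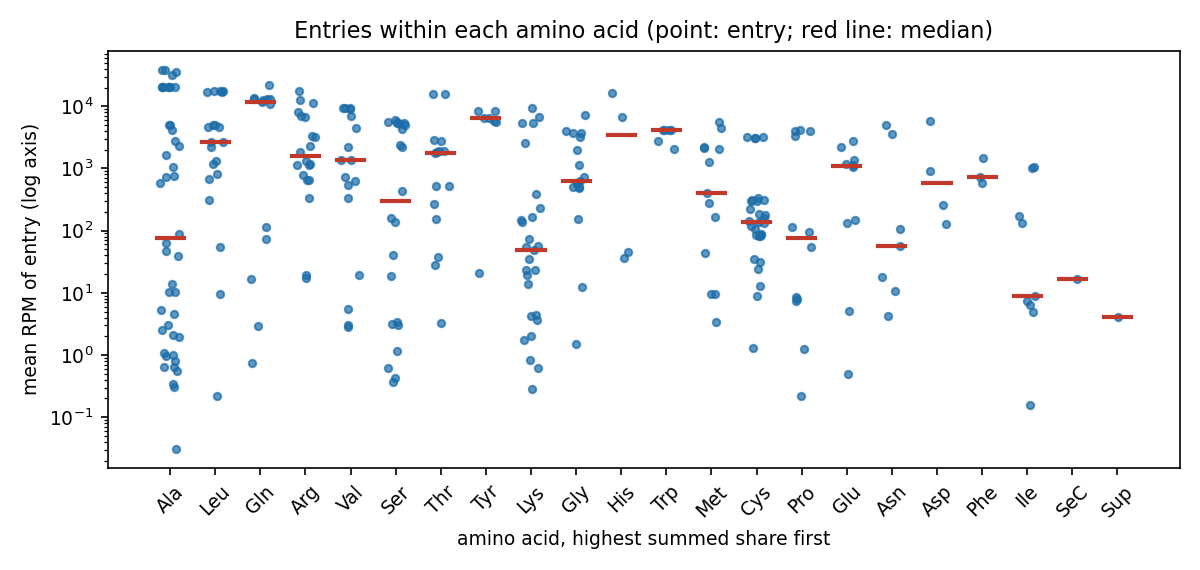
Mean RPM (log axis) of every tRNA entry in the 2 empty vector libraries, by amino acid in the order of summed share; each point is an entry and the red line the median. Alanine entries run from under 1 RPM to 38701.6 RPM, while the 6 tryptophan entries differ 2.03-fold.

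The number of genes of an anticodon went only loosely with its reads, and the number of entries went with them more closely by rank. RefSeq names 402 mouse tRNA genes by amino acid and anticodon in GRCm38.p6, covering 48 of the 54 anticodons, and mm10, which the submitters used, is the same assembly without the later patches. Across these 48 anticodons, gene number and summed RPM gave a Pearson's r of 0.109 and a Spearman's rho of 0.464. Across all 54 the number of entries and summed RPM gave an r of 0.271 and a rho of 0.692. These are descriptions without a test, since all anticodons share the same 2 libraries.

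CysGCA joined the most genes to few reads per gene, though IleAAT and GlyTCC had fewer reads per gene as deposited. CysGCA had 56 RefSeq genes and 16087 ± 575 RPM, or 287 RPM per gene (92.7 with near-identical entries within 5% counted once), while AlaCGC had 9 genes and 14759 RPM per gene. LeuCAA, with 4 genes, stood at 17234 RPM per gene, the highest as deposited, and AlaTGC, with 11 genes, at 14423. These values rest on near-identical entries. Counted once within 1% in an anticodon, LeuCAA came to 4308.6 RPM per gene, AlaCGC to 10180.8 and AlaTGC to 8802.0, and across anticodons LeuCAA came to 3446.9, AlaCGC to 6735.7 and AlaTGC to 6239.8, so that LeuCAA was no longer the highest. The highest was then AlaCGC in an anticodon, and GlyACC, with 7202.9 RPM per gene, across anticodons. IleAAT, with 15 genes, came to 139 RPM per gene (70.3 with near-identical entries counted once), GlyTCC, with 7, to 93.7, and AspGTC, with 16, to 446. Among anticodons with 1 RefSeq gene, GlyACC stood at 7202.9 RPM, IleTAT at 312, SerGGA at 136 and HisATG at 36.9 RPM.

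**Figure D5:**
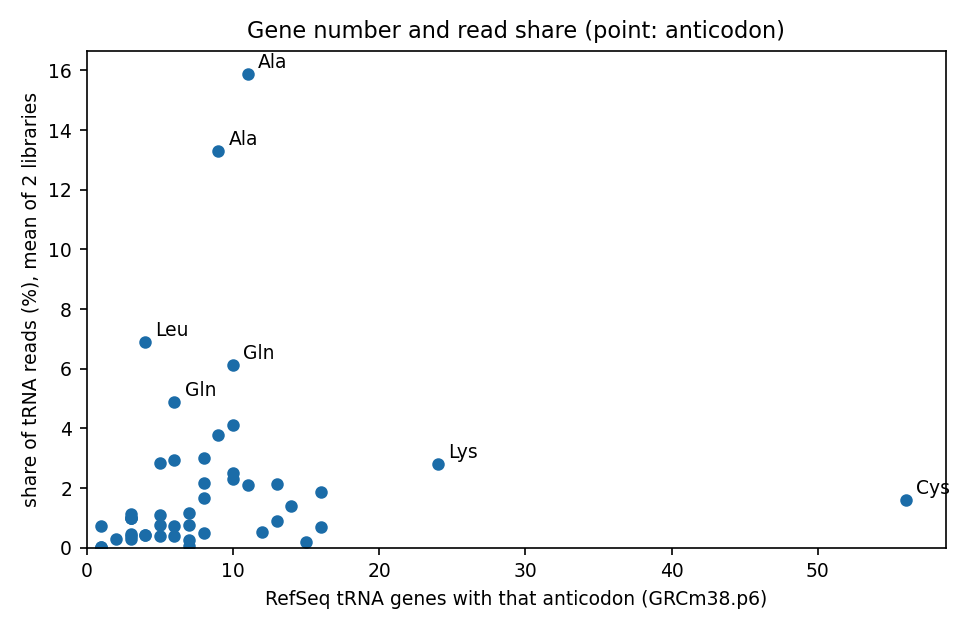
Share of tRNA reads (%, mean of the 2 empty vector libraries) against the number of RefSeq tRNA genes (GRCm38.p6) for 48 anticodons; each point is an anticodon, and those above 4.5% or with more than 20 genes are labelled by amino acid. Cysteine lies far right and low, with 56 genes and 1.61% of reads, and the highest point is an alanine anticodon with 11 genes and 15.9%.

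A list of 20 anticodons of m7G tRNAs, taken with results of this series known and including all alanine anticodons but GGC and those of lysine, methionine, tryptophan, tyrosine and valine, held 53.1% ± 1.0 of reads with 176 of the 301 entries. Without alanine entries its share was 31.8% ± 1.1 with 133 of 257 entries. m7G, placed by METTL1 with WDR4 in the variable loop, was not measured in these uncleaved libraries. The leucine, serine and selenocysteine tRNAs, which have a long variable arm, held 17.2% and 16.0% of reads with 43 entries.

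The libraries stood close for abundant entries and apart for some. Of the 242 entries of at least 10 RPM, 161 were within 10% of each other and 20 differed by more than 25%, and of the 59 lower entries 36 differed by more than 25%. The arginine entry ArgCCG2 had 5784.2 RPM in library 1 and 8141.4 RPM in library 2, and MetCAT10 1680.5 and 2400.9 RPM, both higher in library 2. SerAGA75 had 6679.9 and 5201.5 RPM, lower in library 2. By amino acid, valine was higher in library 2, at 5.18% in library 1 and 5.97% in library 2, and serine lower, at 5.11% and 4.51%. The entries in this paragraph were chosen for their difference after their values were seen, and no test between 2 single libraries was made.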

How the data were processed

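Small RNA from the fibroblasts was treated with AlkB proteins and turned into input libraries for Illumina sequencing, per the labels' protocols. Trim Galore, Bowtie, bedtools and mm10 are named in the submitters' processing notes, with no versions. The authors deposited RPM values per tRNA entry in 2 tables, whose empty vector columns are identical for all 301 entries. The columns sum to 999924 and 999933 RPM, and all 301 values in each convert to whole reads, to within 0.01 reads. The implied totals leave 1219 and 364 reads outside the table. They are too high if 1 read was counted in more than 1 entry. No count test was run, as only 1 group is described.

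Shares are percent of summed RPM in each library, given as mean ± SD over 2 libraries. Entries of a mean of at least 10 RPM, within 1% or 5% of another in both libraries, were linked as near-identical. Intervals are Wilson intervals on implied reads. RefSeq genes were matched by amino acid and anticodon in the gene symbol. Python 3.11.15, pandas 2.3.3, numpy 2.4.6, scipy 1.17.1 and matplotlib 3.10.9 were used, and the summaries were tested on simulated data. No tRNA sequences were used here.

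The members and lists were chosen with earlier results of these data known, among them the m7G list of 20 anticodons. Entries were named by rule: the 10 highest, the 10 lowest, those at 0, the leading entry of each amino acid, and the extremes of each anticodon described. Entries named for near-identical values or for a gap to others were chosen after their values were seen. Alternatives were a minimum of 10 RPM, pooling by implied reads, near-identical entries counted once, other pseudocounts, and each library alone. Counting once across anticodons, within boxes and pairs, and per gene was added after the data were seen. The shares of some codon boxes are not reported here.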

Additional observations from a re-analysis of the deposited data

How the results depend on the processing

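Leaving out entries under 10 RPM gave 31.3% for alanine, 15.9% for AlaTGC, 58.6% for the boxes of 1 amino acid and 26.7% for T34, as reported. Those entries hold 0.0185% of reads, so leaving them out could barely move the shares and is no check of them. Single libraries and pooled reads cannot move these shares by more than the SD between 2 libraries, so they are no check of stability. Most moved by more when near-identical entries were counted once, within 1% or 5% in an anticodon or, as chosen after seeing the data, across the anticodons of an amino acid. In that order of 4 settings the alanine share was 26.5%, 29.3%, 21.9% and 25.5% (31.3% as reported) and the AlaTGC share 12.5%, 13.9%, 10.3% and 12.1% (15.9%). The median share of the leading entry was 46.8%, 52.7%, 52.0% and 56.4% (46.2%), and 45.7% to 46.2% with single libraries. The Spearman correlation of entries and RPM across anticodons was 0.646, 0.582, 0.680 and 0.593 (0.692), 0.676 at a minimum of 10 RPM, 0.698 pooled, and 0.697 to 0.701 with single libraries. The boxes of 1 amino acid held 61.9% within 5% in an anticodon, and 54.2% and 56.3% across anticodons (58.6%). T34 held 24.6% within 1% in an anticodon, and 23.2% and 24.8% across anticodons (26.7%). The number of entries for 50% of reads was 15 within 5% across anticodons (24). These shifts follow from the construction, since fewer entries are summed. The median SD of log2 values was 0.08, 0.06 and 0.07 with a pseudocount of 0.1, of 10 and at a minimum of 10 RPM. No paired analysis was possible because the 2 libraries belong to 1 group. Depth limits only the lowest entries: in library 2 a value under 0.555 RPM rests on fewer than 3 reads.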
